A study of Mus musculus with 5 samples.

Results

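Expression of 9 CC chemokine genes was followed in 5 single-cell RNA-seq libraries of mouse lung. The genes are Ccl2, Ccl3, Ccl4, Ccl5, Ccl6, Ccl7, Ccl9, Ccl17 and Ccl22. They were found by their exact symbol, and each is 1 of the 42454 features counted in every library. The mice were C57BL/6J. Newborn pups with their mothers either stayed in room air or were placed in more than 95% O2 for 3 days, after which the hyperoxia litters returned to room air. Whole-lung suspensions of both exposures were sequenced at postnatal day 7 (pnd7) and at pnd60. The fifth library held cells of hyperoxia-exposed lungs at pnd7 that had been sorted for C12FDG, a fluorescent substrate of β-galactosidase, from a pool of 3 lungs. For the other 4 libraries the number of mice is not stated, and C12FDG-sorted cells of air-exposed lungs were not analysed here. The study took its unsorted data from an earlier publication of the same group, so sorted and unsorted libraries come from separate work.

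CC chemokines are small secreted proteins that bind G protein-coupled receptors on leukocytes and draw these cells along a gradient. Ccl2 and Ccl7 bind Ccr2 and call monocytes out of the blood. Ccl3, Ccl4 and Ccl5 attract T cells, natural killer cells and monocytes. Ccl6 and Ccl9 are rodent chemokines that act through Ccr1. Ccl17 and Ccl22 bind Ccr4 and are known as products of dendritic cells that attract T cells. In the lung, resident macrophages, monocytes, mast cells, lymphocytes and dendritic cells are all known sources of such signals.

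Each deposited value is a number of unique molecular identifiers (UMIs), that is, of captured mRNA molecules of a gene in a cell, so levels were not divided by gene length. Cells with more than 700 and fewer than 8000 genes and under 5% mitochondrial counts were kept, 13200 in all, between 493 in the sorted library and 4756 in the pnd60 hyperoxia library. Total counts were between 7880365 and 16648251 per library. Median counts per cell were 2168 and 2316 at pnd60, 3915 and 7120 at pnd7, and 15529 in the sorted library. Cells named as leukocytes from their markers made up 17.6% and 21.0% of the pnd7 cells, 58.5% and 58.4% of the pnd60 cells and 94.7% of the sorted cells. Unnamed cells, 16.5% and 6.26% of the pnd7 cells, are not among them. They include a cluster led by genes such as Jchain and Mzb1, which are plasma cell markers. Hemoglobin genes took 3.38% and 2.22% of the counts at pnd7, and at most 0.296% elsewhere. Pairs of libraries shared between 0 and 4 cell barcodes. Levels are given as CPM, the counts of a gene per 1000000 counts of the same cells. Every interval is at 95%, and intervals cover counting error only. With 1 library for each condition no test was possible and no p-values are given, so a difference beyond counting error compares these libraries and not groups of mice. Cells were clustered without any chemokine or chemokine receptor gene, and clusters carry the name of a class, with the ending -like, where markers of that class were raised. A class named from markers may hold other cells.

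The 9 genes lie in 3 neighbourhoods of the genome in RefSeq's annotation of GRCm38.p6, the patch release of the mm10 build. Ccl2 (chr11:82035577-82037452) and Ccl7 (chr11:82045712-82047525) are neighbours, and so are Ccl22 (chr8:94745684-94751388) and Ccl17 (chr8:94809380-94812038). Ccl5 (chr11:83525778-83530518), Ccl9 (chr11:83572917-83578636), Ccl6 (chr11:83587886-83593087), Ccl3 (chr11:83647843-83649378) and Ccl4 (chr11:83648624-83664683) stand in a row on chromosome 11. The RefSeq models of Ccl3 and Ccl4 overlap, and whether the counting used strand is not known, so reads may have been assigned to the wrong gene of the pair. The 250 bases before the transcription start were available for 5 of the 9 genes. They are shown for the pairs Ccl6 and Ccl9 and Ccl17 and Ccl22, because the members of each pair are near each other in the genome. All are read 5′ to 3′ on the strand of the gene and end at the base before the start. For Ccl6 this is chr11:83593088-83593337 on the minus strand, for Ccl9 chr11:83578637-83578886 on the minus strand, for Ccl17 chr8:94810203-94810452 on the plus strand and for Ccl22 chr8:94745434-94745683 on the plus strand. The Ccl17 stretch lies inside the span given for that gene above, since it ends before a later start than the first base of the span. Capitals mark the longest run of bases that the pair has in common.
Ccl6: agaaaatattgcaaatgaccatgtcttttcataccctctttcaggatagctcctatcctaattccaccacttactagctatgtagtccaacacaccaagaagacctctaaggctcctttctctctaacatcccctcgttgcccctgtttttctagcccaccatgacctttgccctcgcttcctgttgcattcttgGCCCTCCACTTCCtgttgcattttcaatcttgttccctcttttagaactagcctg
Ccl9: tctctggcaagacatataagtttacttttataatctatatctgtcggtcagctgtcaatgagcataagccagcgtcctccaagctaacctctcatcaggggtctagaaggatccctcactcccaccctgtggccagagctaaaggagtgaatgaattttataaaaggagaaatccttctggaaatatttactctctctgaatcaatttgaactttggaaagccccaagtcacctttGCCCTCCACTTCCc
Ccl17: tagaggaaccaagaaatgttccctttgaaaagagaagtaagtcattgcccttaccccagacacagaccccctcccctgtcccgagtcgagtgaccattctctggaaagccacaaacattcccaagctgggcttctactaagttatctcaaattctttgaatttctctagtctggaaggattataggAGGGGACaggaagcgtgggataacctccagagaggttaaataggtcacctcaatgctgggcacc
Ccl22: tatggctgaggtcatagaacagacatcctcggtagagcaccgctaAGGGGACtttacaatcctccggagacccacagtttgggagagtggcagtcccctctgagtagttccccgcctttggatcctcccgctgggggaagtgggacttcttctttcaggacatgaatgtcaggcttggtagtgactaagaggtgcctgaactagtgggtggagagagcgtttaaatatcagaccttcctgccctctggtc
Ccl6 and Ccl9 shared a run of 13 bases, which began 55 bases before the start of Ccl6 and 14 bases before that of Ccl9. Ccl17 and Ccl22 shared a run of 7 bases, 64 and 205 bases before their starts. The other 8 pairs among the 5 promoters shared runs of 6 to 10 bases, so the run of Ccl6 and Ccl9 was the longest and that of Ccl17 and Ccl22 was within the range of the rest. Without gaps, the best alignments were identical at 34.1% of bases for Ccl6 and Ccl9 and 37.1% for Ccl17 and Ccl22, against 31.3% to 36.2% for the other pairs. Both strands were searched for a TATA box (TATAAA), a kappa-B motif (GGGNNTTCC), an AP-1 motif (TGANTCA) and the core of a PU.1 motif (GAGGAA). Ccl9 held a TATA box match at 3 positions, 224, 94 and 92 bases before the start, 2 of which overlap on opposite strands. It also held a kappa-B match 35 and an AP-1 match 53 bases before the start. Ccl3 held a PU.1 core 33 bases before the start and Ccl17 held one 248 bases before it. Of all 32851 mouse promoters of this length, 12.4% held the TATA box, 4.98% the kappa-B motif, 6.75% the AP-1 motif and 23.3% the PU.1 core. A match is a run of letters and was not shown to be a binding site.

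Most counts of the 9 chemokines lay in leukocytes. Of their 110731 counts, 104814 lay in the 13 leukocyte classes, a share of 94.7% (exact Clopper-Pearson interval 94.5% to 94.8%). The share was 77.9% and 88.1% in the pnd7 air and hyperoxia libraries, 99.4% in the sorted library, and 97.7% and 96.9% in the pnd60 air and hyperoxia libraries. Over the 5 libraries together it was between 87.8%, for Ccl2, and 97.2%, for Ccl22. Within the pnd7 libraries it was lowest for Ccl17, at 55.6% in air and 33.3% in hyperoxia. Together the 9 genes reached 806 CPM in pnd7 air, 1018 CPM in pnd7 hyperoxia, 5818 CPM in the sorted library, 1242 CPM in pnd60 air and 1170 CPM in pnd60 hyperoxia. Ccl6 alone supplied 71.4%, 62.5%, 84.0%, 48.9% and 46.6% of these counts.

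**Figure D1:**
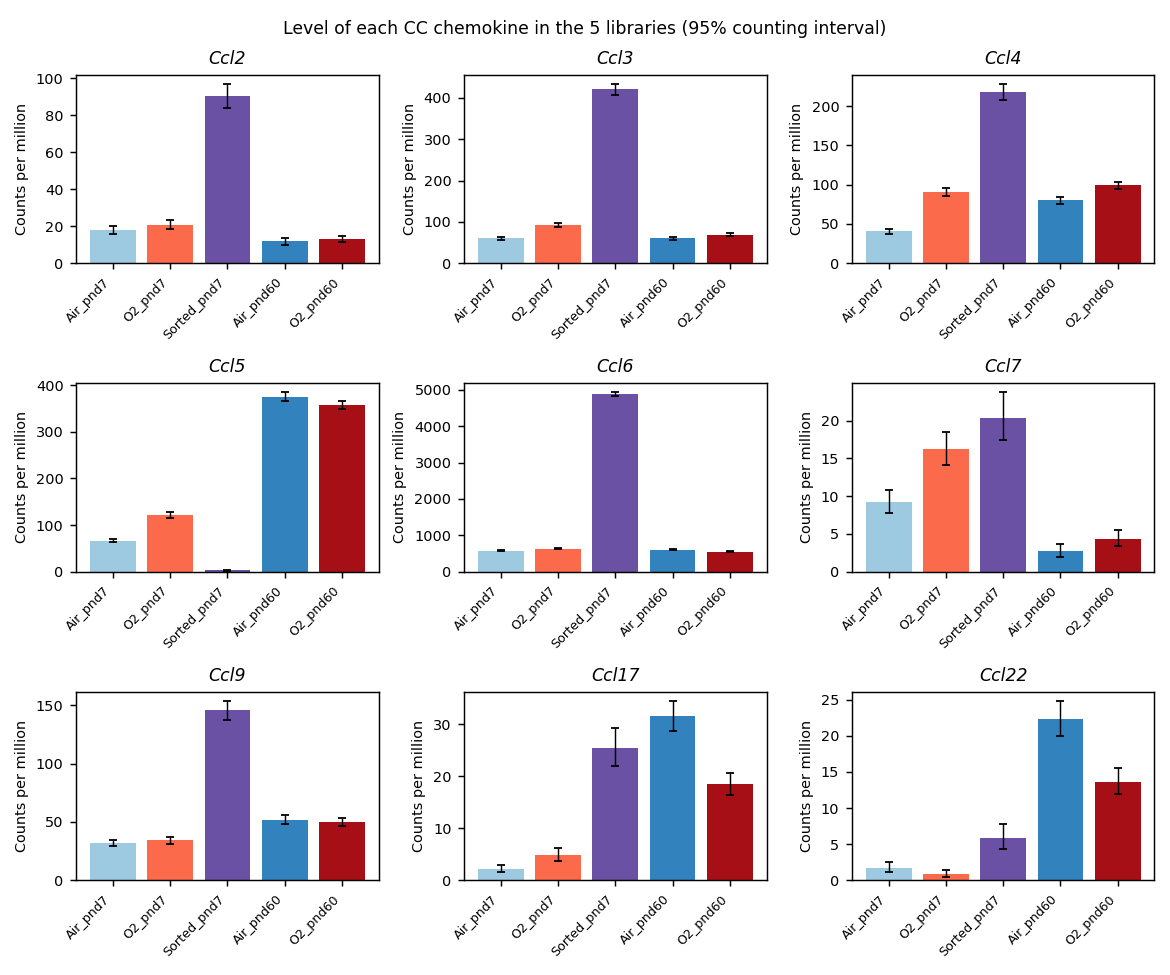
Level of each chemokine in CPM (vertical axis, linear from 0) in the 5 libraries. Bars are the level over all kept cells and whiskers the 95% counting interval. Ccl6, Ccl3, Ccl4, Ccl2 and Ccl9 were highest in the C12FDG-sorted library (Sorted_pnd7), Ccl5 was nearly absent there, and Ccl17 and Ccl22 were highest in pnd60 air (Air_pnd60).

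Ccl6 was the chemokine of alveolar macrophages, which patrol the airspace and clear surfactant. It stood at 576 CPM in pnd7 air, 636 CPM in pnd7 hyperoxia, 4888 CPM in the sorted library, 607 CPM in pnd60 air and 545 CPM in pnd60 hyperoxia. The sorted library was far above the others, and the other 4 lay within a narrow band in which neighbouring intervals still did not overlap. Alveolar macrophage-like cells held between 69.1% and 99.0% of the Ccl6 counts of a library. Their own level was 5790 CPM in pnd7 air, 7493 CPM in pnd7 hyperoxia, 5721 CPM in the sorted library, 4500 CPM in pnd60 air and 4045 CPM in pnd60 hyperoxia. Between 97.8% and 100% of these macrophages had at least 1 Ccl6 UMI. In endothelial-like cells, which should lack the gene, the share was 0.772% in pnd60 air and 1.88% in pnd60 hyperoxia, and 3.92% and 7.69% at pnd7. With each cell thinned to 1000 counts the shares in pnd60 air were 91.4% of alveolar macrophage-like and 0.400% of endothelial-like cells, and the gap remained, with median depths of 7575 and 1752 counts before thinning.

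Ccl6 was also a gene of blood-derived myeloid cells. Classical monocyte-like cells carried 1176 and 1077 CPM at pnd7 and 1679 and 1681 CPM at pnd60, in air and hyperoxia. Neutrophil-like cells carried 1373 and 1563 CPM at pnd7 and 3246 and 3355 CPM at pnd60. In the rare basophil or mast-like cells the level was 1327, 3711, 7575 and 6616 CPM in the same order, from 7 to 11 cells a library. At pnd60 these last cells were thus above the alveolar macrophage-like cells, with intervals that did not overlap. Interstitial macrophage-like cells were lower, from 239 CPM in the sorted library to 2064 CPM in pnd7 hyperoxia, where 436 of their 494 counts came from 1 cell.

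Ccl9 followed the monocyte line more than Ccl6 did. It stood at 31.9 CPM in pnd7 air, 34.2 CPM in pnd7 hyperoxia, 146 CPM in the sorted library, 51.9 CPM in pnd60 air and 49.6 CPM in pnd60 hyperoxia. Within an age the intervals of air and hyperoxia overlapped. Alveolar macrophage-like cells held 25% and 30.2% of its counts at pnd7 and 91.5% in the sorted library, but only 7.58% and 5.98% at pnd60. At pnd60 the main holders were classical monocyte-like cells, with 40.9% and 47.3%. Their Ccl9 level was 224 and 293 CPM at pnd7 and 720 and 674 CPM at pnd60, and in alveolar macrophage-like cells it was 116 and 158 CPM at pnd7 against 38.3 and 30.5 CPM at pnd60. The highest level per class was again in basophil or mast-like cells, between 1189 and 3328 CPM. Between 83.1% and 95.5% of the Ccl9-positive cells of a library also had a Ccl6 UMI, whereas 21.2% to 54.0% of the Ccl6-positive cells had Ccl9. In the sorted library 88.2% of all cells had a Ccl6 UMI.

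**Figure D2:**
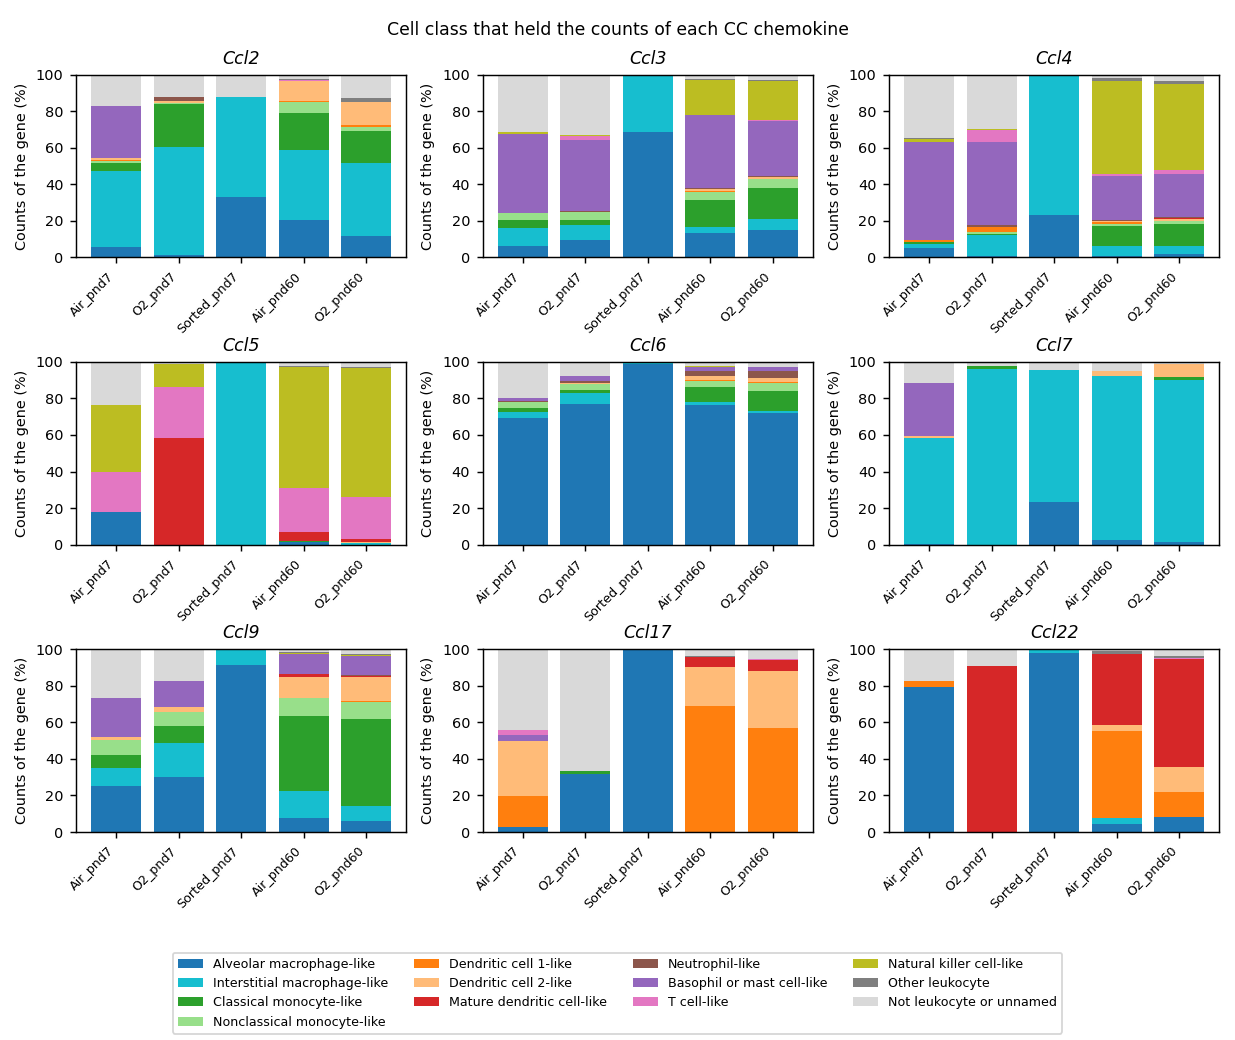
Share of the counts of each chemokine (vertical axis, percent) held by each cell class in each of the 5 libraries, as stacked bars that add to 100. Alveolar macrophage-like cells dominated Ccl6, interstitial macrophage-like cells Ccl7, natural killer-like cells Ccl5 at pnd60, and dendritic cell classes Ccl17 and Ccl22 at pnd60.

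Ccl3 and Ccl4, which are made by activated macrophages, granule-bearing cells and cytotoxic lymphocytes, had their highest levels in basophil or mast-like cells. Ccl3 stood at 60.3 CPM in pnd7 air, 92.6 CPM in pnd7 hyperoxia, 421 CPM in the sorted library, 59.9 CPM in pnd60 air and 68.9 CPM in pnd60 hyperoxia. The air libraries of both ages did not differ beyond counting error, and both hyperoxia libraries lay above them, pnd7 more than pnd60. Ccl4 stood at 40.4, 90.9, 218, 80.0 and 99.6 CPM in the same libraries, lowest in pnd7 air and highest in the sorted cells, with overlapping intervals for the hyperoxia libraries of both ages. The basophil or mast-like class had 10, 7, 0, 11 and 11 cells in them, and was led by the mast cell and basophil genes Cma1, Mcpt4, Cpa3, Tpsb2 and Mcpt8. A second cluster, led by Mcpt4, Tpsb2, Il1rl1, Cpa3 and Cma1, stayed unnamed and is not in this class. It had 3, 5, 0, 17 and 21 cells in the same libraries. The few basophil or mast-like cells held 43.1%, 38.7%, 40.0% and 30.1% of the Ccl3 counts of the 4 unsorted libraries. Their Ccl3 level was 4828 CPM in pnd7 air, 8774 CPM in pnd7 hyperoxia, 12380 CPM in pnd60 air and 13590 CPM in pnd60 hyperoxia, and their Ccl4 level was 3992, 10107, 9855 and 15571 CPM. At pnd60 11 of 11 such cells in each library had UMIs of both genes, against at most 0.375% of endothelial-like cells.

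Ccl4 had other main sources at pnd60 and in the sorted cells. Natural killer-like cells, which are cytotoxic lymphocytes, held 1.78% and 0.567% of the Ccl4 counts at pnd7, when the class had 11 and 3 cells, and 51% and 47% at pnd60, when it had 183 and 188 cells. Their Ccl4 level at pnd60 was 1494 CPM in air and 1876 CPM in hyperoxia, with 49.2% and 61.2% of cells positive. In the sorted library 75.8% of the Ccl4 counts lay in 47 interstitial macrophage-like cells, at 1866 CPM, and 23.2% in 413 alveolar macrophage-like cells, at 59.8 CPM. Ccl3 in the sorted library was shared differently, with 68.5% of its counts in alveolar and 31.2% in interstitial macrophage-like cells. Their Ccl3 levels were 341 and 1477 CPM. Of the Ccl4-positive cells of a library, between 45.3% and 83.1% also had a Ccl3 UMI.

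Ccl5, which cytotoxic lymphocytes and mature dendritic cells secrete, was a gene of natural killer-like and T cell-like cells. It stood at 66.7 CPM in pnd7 air, 121 CPM in pnd7 hyperoxia, 2.92 CPM in the sorted library, 375 CPM in pnd60 air and 357 CPM in pnd60 hyperoxia. The pnd60 libraries were highest, with intervals that just overlapped, and the sorted library, which held 23 counts in 4 cells, was lowest. Natural killer-like cells held 66.4% and 70.8% of the counts at pnd60, at 9122 and 10123 CPM. A Ccl5 UMI was found in 98.9% and 97.9% of them, at median depths of 1905 and 2024 counts, and in 0.901% and 1.12% of endothelial-like cells, at 1752 and 1844 counts. T cell-like cells held 21.8% of the counts in pnd7 air, 28.3% in pnd7 hyperoxia, 23.9% in pnd60 air and 22.8% in pnd60 hyperoxia. Only 10.6% to 19.1% of the T cell-like cells were positive, so the Ccl5 of this class came from a minority of its cells.

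At pnd7 the Ccl5 total rested on very few cells. In pnd7 hyperoxia 4 mature dendritic-like cells, led by Fscn1 and Il12b, held 958 of 1649 counts, and 1 of them held 442. In pnd7 air 199 of 1111 counts came from 1 cell of the alveolar macrophage-like class. That cell had 21611 counts, and UMIs of 11 of 13 alveolar macrophage markers and 7 of 9 mature dendritic markers. A further 205 counts of pnd7 air were spread over erythroid-like cells, 16.6% of which had a Ccl5 UMI, against 0.654% of endothelial-like cells of that library. Where those counts came from was not tested.

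Ccl2 and Ccl7, the monocyte attractants, were genes of interstitial macrophage-like cells, which were led by the complement genes C1qa, C1qb and C1qc. Ccl2 stood at 18 CPM in pnd7 air, 20.6 CPM in pnd7 hyperoxia, 90.2 CPM in the sorted library, 11.7 CPM in pnd60 air and 13.1 CPM in pnd60 hyperoxia. Air and hyperoxia overlapped in their intervals at both ages, and the sorted library stood above all. Interstitial macrophage-like cells held 41.8%, 58.9%, 54.3%, 38.4% and 40.3% of these counts, at 498, 689, 552, 282 and 382 CPM. At pnd60 32.3% and 42.9% of them were positive, against 0.0847% and 0.331% of B cell-like cells. Classical monocyte-like cells carried 439 CPM in pnd7 hyperoxia and 68.9, 80.5 and 64.3 CPM in pnd7 air, pnd60 air and pnd60 hyperoxia. In pnd7 air 28.8% of the Ccl2 counts lay in 3 basophil or mast-like cells, of which 1 held 51.

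Ccl7 was rarer and more confined. It stood at 9.19 CPM in pnd7 air, 16.2 CPM in pnd7 hyperoxia, 20.4 CPM in the sorted library, 2.71 CPM in pnd60 air and 4.35 CPM in pnd60 hyperoxia. The pnd7 libraries, sorted or not, were all above the pnd60 libraries, and the intervals of pnd7 hyperoxia and the sorted library overlapped. Interstitial macrophage-like cells held 57.5%, 95.9%, 72.0%, 90.0% and 88.9% of its counts, at 351, 881, 166, 154 and 281 CPM. In B cell-like cells 0 of 1180 pnd60 air and 0 of 1210 pnd60 hyperoxia cells had a Ccl7 UMI, which allows shares of up to 0.254% and 0.248%, the limit being 3 cells of the total. Most Ccl7-positive cells were also Ccl2-positive, from 61.1% in pnd60 air to 95.0% in pnd60 hyperoxia, whereas 12.9% to 37.5% of the Ccl2-positive cells had Ccl7.

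Ccl17 and Ccl22 were genes of dendritic cells at pnd60 and scarce at pnd7. Ccl17 stood at 2.16 CPM in pnd7 air, 4.86 CPM in pnd7 hyperoxia, 25.4 CPM in the sorted library, 31.5 CPM in pnd60 air and 18.4 CPM in pnd60 hyperoxia. Pnd60 air was highest, with an interval that overlapped that of the sorted library, and the pnd7 libraries were lowest. At pnd60 dendritic cell 1-like cells, the cross-presenting subset marked by Xcr1 and Clec9a, held 69.0% and 56.7% of the counts, at 1006 and 553 CPM. Dendritic cell 2-like cells, marked by Cd209a and Mgl2, held 21.1% and 31.5%, at 285 and 227 CPM. Of the dendritic cell 1-like cells 41.5% and 24.4% were positive, against 0 of 777 and 0 of 800 endothelial-like cells, which by the same limit allows up to 0.386% and 0.375%. Within the class the counts were uneven, since 1 cell held 152 of 321 counts in air and 1 cell held 91 of 173 in hyperoxia. In the sorted library all 200 counts lay in 12 alveolar macrophage-like cells, and 1 of these, with 80 counts, had UMIs of 3 of 9 mature dendritic markers and of 5 of 10 interstitial macrophage markers. Classed from its own markers, this cell was dendritic cell 2-like.

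Ccl22 stood at 1.74 CPM in pnd7 air, 0.810 CPM in pnd7 hyperoxia, 5.84 CPM in the sorted library, 22.3 CPM in pnd60 air and 13.6 CPM in pnd60 hyperoxia. The pnd60 libraries were highest, the sorted library came next, and the pnd7 libraries were lowest, with overlapping intervals. Mature dendritic-like cells, 6 in pnd60 air and 8 in pnd60 hyperoxia, held 38.9% and 59.1% of the counts, at 3560 and 2881 CPM. Dendritic cell 1-like cells held 47.4% and 13.3%, at 489 and 95.9 CPM, and in pnd60 air 107 of their 156 counts came from 1 cell. That cell was also the one with the 152 Ccl17 counts. The genes overlapped in part, with 37.3% of Ccl17-positive cells carrying Ccl22 in pnd60 air and 41.0% in pnd60 hyperoxia.

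How many cells stood behind a level differed widely between the genes. Ccl6 and Ccl9 were spread most evenly, and the fewest cells that together held 50% of their counts numbered 15 to 72 and 13 to 62. For Ccl5 the number was 64 and 74 at pnd60 but 6 and 3 at pnd7. For Ccl3 and Ccl4 it was 6 to 33 and 4 to 26, and for Ccl2 5 to 19. Ccl7, Ccl17 and Ccl22 rested on 1 to 5 cells in every library. In pnd7 air and hyperoxia Ccl2 rested on 5 and 5 cells, Ccl3 on 7 and 6, Ccl4 on 4 and 5 and Ccl5 on 6 and 3. Levels that rest on so few cells carry the chance of catching such a cell, which the counting interval does not cover. The cell with most counts held between 13% and 36.1% of a library's Ccl7 counts, between 29.8% and 66.7% of its Ccl17 counts and between 21.3% and 62.1% of its Ccl22 counts.

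**Figure D3:**
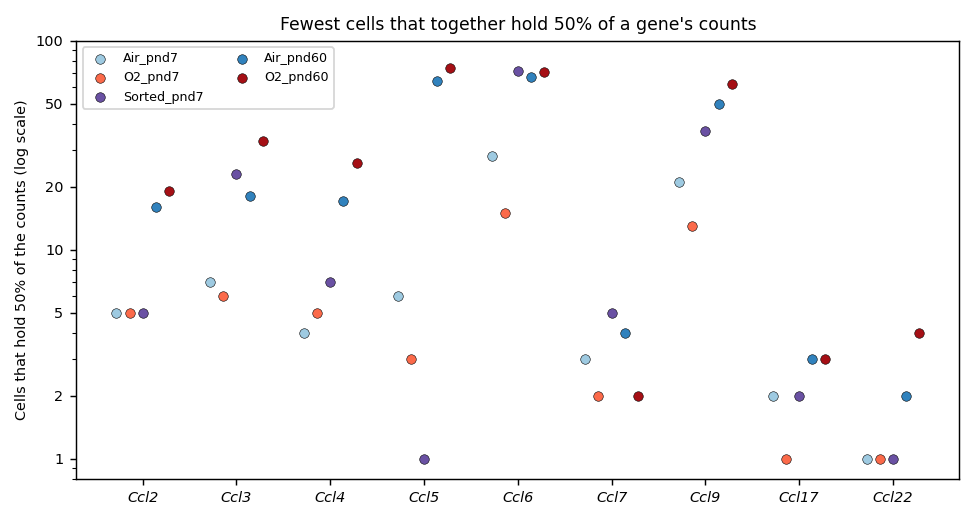
Fewest cells that together held 50% of the counts of each chemokine (vertical axis, log scale), 1 point for each of the 5 libraries. Ccl6 and Ccl9 rested on 13 to 72 cells, and Ccl7, Ccl17 and Ccl22 on 1 to 5 cells.

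Hyperoxia and air were compared first at pnd7. A gene was counted as higher or lower where its CPM differed by 2-fold or more and both libraries together held at least 20 counts. Ccl4 and Ccl17 were 2-fold or more higher and Ccl22 2-fold or more lower in hyperoxia. Of all 15660 genes that could be counted, 0.926% were higher and 2.36% lower, and the median log2 ratio was 0.62 over the 9 chemokines and -0.03 over all these genes. Ccl4 gave 1234 hyperoxia counts and 673 air counts, and its log2 ratio was 1.17 (interval 1.03 to 1.31). Ccl5, at 0.86 (0.75 to 0.98), Ccl7, at 0.82 (0.51 to 1.13), and Ccl3, at 0.62 (0.50 to 0.74), were higher beyond counting error but by less than 2-fold. Of the 1649 hyperoxia counts of Ccl5, 958 lay in 4 mature dendritic-like cells, a class with 0 cells in pnd7 air. The ratio of Ccl5 thus rests largely on these 4 cells. Ccl6 was at 0.14 (0.10 to 0.19), and Ccl2 and Ccl9 did not differ beyond counting error. The make-up of the libraries differed, with erythroid-like cells at 6.82% of hyperoxia and 25.8% of air cells. Type II-like cells were 21.3% and 8.41%. Shares of classes and levels within them are added together in these ratios. Leukocyte classes held 70.2% of the hyperoxia and 65.1% of the air counts of Ccl4.

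The ratios of the rare chemokines at pnd7 turned on single cells. For Ccl17 the log2 ratio of 1.17 (0.56 to 1.80) rested on 66 hyperoxia and 36 air counts, and 44 of the 66 came from 1 cell. That cell was in the type I-like epithelial class, had 37180 counts and had UMIs of 5 of 8 dendritic cell 1 markers and 5 of 9 mature dendritic markers. Without the cell with most counts in each library the ratio of Ccl17 was 0.17 (-0.73 to 1.07). For Ccl22 the log2 ratio of -1.10 (-2.25 to -0.06) rested on 11 hyperoxia and 29 air counts, and without the leading cells it was -0.84 (-2.72 to 0.80) on 5 and 11 counts, under the minimum. The ratio of Ccl4 without the leading cells was 1.23 (1.08 to 1.39).

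By class, the pnd7 difference of Ccl4 did not lie in alveolar macrophages. That class gave 7 hyperoxia and 33 air counts of Ccl4, 28 of the latter in 1 cell, and the log2 ratio was -1.87 (-3.29 to -0.67). The basophil or mast-like cells held 561 of the 1234 hyperoxia counts and 358 of the 673 air counts, and interstitial macrophage-like cells held 147 and 15. Ccl3 in alveolar macrophage-like cells was 136 CPM in hyperoxia and 56.0 CPM in air, a log2 ratio of 1.29 (0.84 to 1.75). Ccl6 there was at 0.37 (0.32 to 0.42) and Ccl9 at 0.44 (0.09 to 0.79). In T cell-like cells Ccl5 was at 1.40 (1.17 to 1.63), with 252 of the 466 hyperoxia counts in 1 cell.

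At pnd60 0 of the 9 chemokines differed by 2-fold between hyperoxia and air. Over all 15917 genes 1.28% were 2-fold or more higher and 0.829% lower, and the median log2 ratio was -0.07 over the 9 chemokines and 0.01 over all genes. Ccl17, with a log2 ratio of -0.77 (-0.99 to -0.56), and Ccl22, with -0.71 (-0.96 to -0.46), were lowest in hyperoxia relative to air. Ccl7 was at 0.68 (0.11 to 1.28), and at 0.31 without the leading cells, with an interval that included 0. Ccl4 was at 0.32 (0.21 to 0.43) and Ccl3 at 0.20 (0.08 to 0.33). Ccl2, Ccl5, Ccl6 and Ccl9 lay between -0.15 and 0.16, and Ccl5 turned from -0.07 to 0.07 as the mean over cells. The class that held most Ccl17, dendritic cell 1-like cells, had 45 hyperoxia and 41 air cells. Its log2 ratio was -0.86 (-1.14 to -0.59) for Ccl17 and -2.35 (-2.96 to -1.78) for Ccl22. For Ccl22, 1 cell held 107 of 156 air counts and 1 cell held 13 of 30 hyperoxia counts. For Ccl17, 1 cell held 152 of 321 air counts and 1 cell held 91 of 173 hyperoxia counts. Positive for Ccl22 were 19.5% of these cells in air and 13.3% in hyperoxia. In dendritic cell 2-like cells Ccl22 was higher in hyperoxia, at 1.07 (0.07 to 2.17) on 31 and 12 counts. There 15 of the 31 counts came from 1 cell, and 11.1% of hyperoxia and 10.2% of air cells were positive. In natural killer-like cells Ccl5 was at 0.15 (0.09 to 0.21), Ccl4 at 0.33 (0.17 to 0.48) and Ccl3 at 0.50 (0.21 to 0.80).

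**Figure D4:**
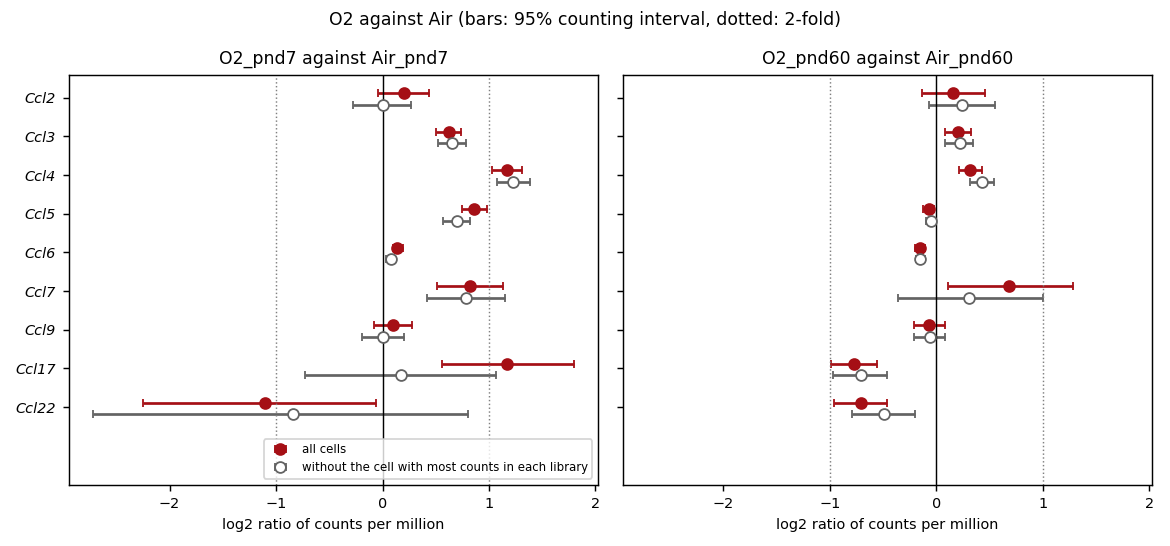
Log2 ratio of CPM between hyperoxia and air at pnd7 (left) and pnd60 (right) for each chemokine. Filled points are all cells, open points leave out the cell with most counts of the gene in each library, bars are 95% counting intervals and dotted lines mark 2-fold. Ccl4 stayed above 2-fold at pnd7 without its leading cells, and Ccl17 went from 1.17 to 0.17.

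The C12FDG-sorted cells of hyperoxia-exposed lungs were then compared with the unsorted hyperoxia library of the same age. Ccl2, Ccl3, Ccl4, Ccl6, Ccl9, Ccl17 and Ccl22 were 2-fold or more higher and Ccl5 was 2-fold or more lower in the sorted library. Of all 14538 genes 8.12% were higher and 43.4% lower, and the median log2 ratio was 2.13 over the 9 chemokines and -0.74 over all genes. The log2 ratio was 2.94 (2.91 to 2.98) for Ccl6, 2.85 (1.88 to 3.95) for Ccl22, 2.38 (1.98 to 2.81) for Ccl17, 2.18 (2.09 to 2.28) for Ccl3, 2.13 (1.93 to 2.33) for Ccl2, 2.09 (1.93 to 2.25) for Ccl9 and 1.26 (1.16 to 1.37) for Ccl4. Ccl7 was at 0.33 (0.03 to 0.63), and Ccl5 at -5.38 (-6.04 to -4.79). The make-up of the libraries differed as much. Alveolar macrophage-like cells were 83.8% of the sorted and 4.65% of the unsorted cells, interstitial macrophage-like cells 9.53% and 1.52%, and T cell-like, classical monocyte-like and basophil or mast-like cells were each at 0 of 493 sorted cells, which by the same limit allows up to 0.609%. A higher share of a class and more chemokine per cell of it are added together in these ratios.

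Within alveolar macrophage-like cells, 413 sorted and 58 unsorted, Ccl6 was no longer higher in the sorted cells, whereas Ccl2, Ccl3 and Ccl4 were 2-fold or more higher. With cells thinned to 1000 counts each, Ccl3 alone was past 2-fold, and Ccl4, with no counts left in the unsorted cells, gave a lower bound of 0.54. Of 9844 genes counted in this class 5.64% were 2-fold or more higher and 20.6% lower in the sorted cells, and their median log2 ratio was -0.36. Ccl6 was 5721 CPM in sorted and 7493 CPM in unsorted cells, a log2 ratio of -0.39 (-0.43 to -0.35), which turned to 0.10 with median-of-ratios size factors and was -0.03 with TMM factors. Ccl9 was 157 and 158 CPM, a log2 ratio of -0.00 (-0.26 to 0.26). Ccl3 was 341 and 136 CPM, a log2 ratio of 1.32 (1.06 to 1.60). Ccl4 had 399 counts in sorted and 7 in unsorted cells, a log2 ratio of 2.92 (1.87 to 4.25), and Ccl2 had 236 and 4 counts, 2.97 (1.60 to 4.86). Ccl2 and Ccl4 were thus found in few macrophages, 11.6% and 11.9% of the sorted cells, whereas 69.2% of them had Ccl3. Of the 236 Ccl2 counts 108 came from 1 cell of 51440 counts, and the 4 unsorted counts all came from 1 cell, so that without the leading cells the ratio was a lower bound of 2.48. Ccl7, with 38 and 0 counts, gave a lower bound of 0.75, and Ccl22, with 45 and 0, one just short of 2-fold, with 3 counts put in place of 0. Of the 38 Ccl7 counts 19 came from 1 cell, and of the 45 Ccl22 counts 24 came from 1 cell. Classed from its own markers, that Ccl22 cell was dendritic cell 2-like. Ccl17 was at 0.34 (-0.31 to 1.07), at a lower bound of 2.40 without the leading cells, of which the unsorted one held all 21 counts of its class, and at -2.68 with each cell classed from its own markers. Ccl5 had 0 counts in the 413 sorted cells.

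The macrophages of the libraries fell in different clusters, which bears on each of these ratios. Of the sorted alveolar macrophage-like cells 370 lay in a cluster led by Slc7a11, Hmox1, Mt1, Mmp12 and Mt2, genes of the oxidative and metal stress response and a macrophage elastase, which held 4 unsorted hyperoxia cells. Of the unsorted ones 40 lay in a cluster led by B3gnt7, Abcg1 and Olr1, which held 0 sorted cells. A cluster held by a single library may be that library and not a type of cell. Both libraries shared a cluster of dividing cells, led by Pclaf, Top2a, Rrm2 and Mki67, with 43 sorted and 13 unsorted cells. In it Ccl3 was 362 CPM in sorted and 114 CPM in unsorted cells, a log2 ratio of 1.66 (1.11 to 2.27). Ccl4 had 76 and 2 counts, 3.02 (1.12 to 6.10), Ccl6 was at -0.12 (-0.20 to -0.03) and Ccl9 at -0.32 (-0.83 to 0.21). The 45 interstitial macrophage-like cells of a cluster with sorted cells only carried Ccl3 at 1546 CPM and Ccl4 at 1965 CPM, against 426 and 614 CPM in the 19 such cells of the unsorted hyperoxia lung. Depth per cell was alike in alveolar macrophage-like cells, with medians of 15736 sorted and 14460 unsorted counts. The parts of sorting, of handling and of the separate origin of the libraries cannot be told apart from that of the sorted property.

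**Figure D5:**
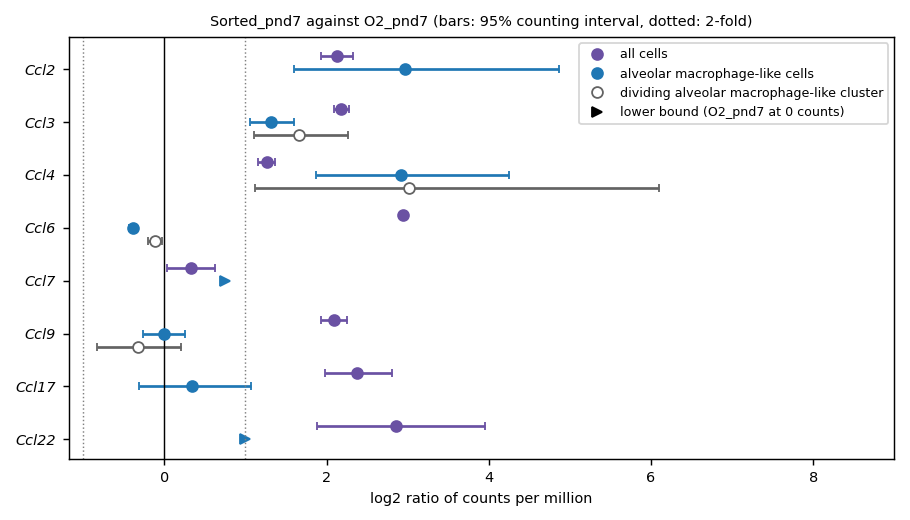
Log2 ratio of CPM between the C12FDG-sorted and the unsorted hyperoxia library at pnd7, over all cells (purple), in alveolar macrophage-like cells (blue) and in their dividing cluster (open), with 95% counting intervals. Triangles are lower bounds where the unsorted cells had 0 counts, and Ccl5, without counts in the sorted macrophages, is not drawn. Ccl6 and Ccl9 moved from above 2 over all cells to near 0 within the class, whereas Ccl3 and Ccl4 stayed above 1. With cells thinned to 1000 counts the unsorted class had no Ccl4 counts left. The ratio of Ccl4 was then only a lower bound under 1, which cannot tell whether 2-fold was kept.

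Between pnd7 and pnd60 in air, Ccl5, Ccl17 and Ccl22 were 2-fold or more higher with age and Ccl7 was 2-fold or more lower. Over all 16021 genes 17.2% were higher and 11.5% lower, and the median log2 ratio was 0.70 over the 9 chemokines and 0.22 over all genes. The log2 ratios were 3.87 (3.38 to 4.40) for Ccl17, 3.68 (3.13 to 4.28) for Ccl22, 2.49 (2.40 to 2.58) for Ccl5 and -1.76 (-2.30 to -1.25) for Ccl7. Ccl4 was at 0.98 (0.85 to 1.12), Ccl9 at 0.70 (0.54 to 0.86), Ccl6 at 0.08 (0.03 to 0.12), Ccl3 at -0.01 (-0.14 to 0.12) and Ccl2 at -0.62 (-0.90 to -0.35). With every deposited barcode kept, Ccl2 stood at 0.09 and Ccl3 at 0.71. Ccl6 was -0.10 with median-of-ratios and -0.15 with TMM factors, so its direction with age depends on the scaling.

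The same 4 chemokines passed 2-fold in the same direction between the hyperoxia libraries of pnd7 and pnd60. Ccl22 was at 4.07 (3.20 to 5.09), Ccl17 at 1.92 (1.54 to 2.33), Ccl5 at 1.55 (1.48 to 1.63) and Ccl7 at -1.90 (-2.30 to -1.51). Over all 15962 genes 21.7% were higher and 11.2% lower, and the median log2 ratio was 0.13 over the 9 chemokines and 0.29 over all genes. These comparisons share libraries with those of exposure. The other 5 lay between -0.66 for Ccl2 and 0.54 for Ccl9. The shares of the classes behind these genes did not all change in the same direction. In air and hyperoxia, natural killer-like cells were 0.477% and 0.241% of the cells at pnd7 and 4.16% and 3.95% at pnd60. Dendritic cell 1-like cells were 0.217% and 0.401% against 0.932% and 0.946%. Mature dendritic-like cells were 0 and 0.321% against 0.136% and 0.168%. Interstitial macrophage-like cells, which held most Ccl7, were 0.953% and 1.52% against 1.48% and 1.18%.

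Within classes the age difference took another form. In alveolar macrophage-like cells Ccl9 was lower at pnd60, by a log2 ratio of -1.60 (-2.07 to -1.15) in air and -2.37 (-2.87 to -1.89) in hyperoxia, and Ccl6 by -0.36 (-0.41 to -0.31) and -0.89 (-0.94 to -0.84). In classical monocyte-like cells of air, by contrast, Ccl9 was higher at pnd60, at 1.69 (1.20 to 2.21), and so was Ccl4, at 2.65 (1.62 to 3.89). In interstitial macrophage-like cells of air Ccl7 was at -1.19 (-1.79 to -0.61), Ccl2 at -0.82 (-1.27 to -0.38) and Ccl3 at -1.59 (-2.23 to -0.99). In T cell-like cells Ccl5 was at 1.74 (1.54 to 1.94) in air and 0.19 (0.04 to 0.35) in hyperoxia, where the pnd7 level rested on few cells. The pnd7 alveolar macrophage-like cells lay mostly in the cluster led by B3gnt7 and those of pnd60 in one led by Chil3, Krt79 and Cidec.

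Counts outside the leukocyte classes numbered 5917, and 48.8% of them lay in 40 of 6714 cells, those with at least 20 counts of a member. Of these 40 cells 31 had a UMI of Ptprc, the pan-leukocyte gene CD45, against 12.6% of all cells outside the leukocyte classes. In 39 of them at least 3 markers of 1 leukocyte class were found, and 33 had more counts than the median of their own class. That leukocyte class was the one with the largest share of its markers found in the cell. The other cells were not counted this way. Cells with more counts show more genes, and neither the Ptprc nor the marker share was matched for depth. In pnd7 air a type I-like cell held 72 Ccl3 and 83 Ccl4 counts together with 8 of 11 basophil or mast cell markers, and a fibroblast-like cell held 55 and 77 with 7 of 11. Scrublet called 8 of the 40 cells doublets. In all it called 0 and 4 cells in pnd7 air and hyperoxia, which held 15 and 11 of the 40, and 141 and 157 at pnd60. Its calls therefore say little about the pnd7 cells. In pnd7 air Ccl6 stood at 938 CPM in secretory airway-like cells, 396 CPM in cells of unnamed clusters and 272 CPM in erythroid-like cells, against 91.5 CPM in endothelial-like cells. The secretory airway-like cells also carried the alveolar macrophage genes Ear2 at 90.0 CPM, Plet1 at 277 CPM and Lpl at 379 CPM, and the hemoglobin gene Hbb-bs at 48100 CPM. The part of free RNA or joined cells in these counts was not tested.

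Receptors for these chemokines were read beside them. Ccr2, the receptor of Ccl2 and Ccl7, stood at 44.7, 39.0, 5.46, 147 and 153 CPM in pnd7 air, pnd7 hyperoxia, the sorted library, pnd60 air and pnd60 hyperoxia, and classical monocyte-like cells held 37.3% of it. Ccr7, which guides cells to lymph nodes, stood at 26.2, 28.9, 0.381, 150 and 130 CPM, and B cell-like cells held 43.1%. Ccrl2, a non-signalling relative, stood at 16.3, 22.7, 67.4, 47.9 and 53.6 CPM. At pnd7 Ccr10 was 2-fold or more higher in hyperoxia than in air, as were 0.926% of all genes. At pnd60 neither Ccr2, Ccr7 nor Ccrl2 differed by 2-fold. In the sorted library Ccr1 and Ccrl2 were 2-fold or more higher and Ccr2, Ccr7, Ccr10 and Ackr2 lower. Over all genes 8.12% were higher and 43.4% lower there. Within alveolar macrophage-like cells Ccr2 was lower, as were 20.6% of all genes. In air and in hyperoxia Ccr2, Ccr4, Ccr6, Ccr7, Ccrl2 and Ackr4 were 2-fold or more higher at pnd60 than at pnd7. Over all genes 17.2% and 21.7% were higher. B cell-like cells were 1.56% and 1.36% of the cells at pnd7 and 26.8% and 25.4% at pnd60.

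Of the other 12 CC chemokines on the list, 6 or fewer had enough counts for a ratio. Ccl27a, Ccl12 and Ccl24 had 652, 535 and 479 counts in all, near the 646 of Ccl7 and 640 of Ccl22. Ccl19, Ccl21a and Ccl26 had 0 counts under these exact symbols, and any features that carry these names with a suffix were not added. Ccl12, a further Ccr2 ligand, held 93.1% of its counts in interstitial macrophage-like cells and stood at 6.91, 17.5, 1.02, 3.87 and 7.14 CPM in the same order of libraries. Ccl24, an eosinophil attractant, stood at 6.19, 3.09, 39.2, 0.882 and 0.726 CPM, with 76.4% of its counts in interstitial macrophage-like cells. Ccl27a, whose counts lay mostly outside leukocytes, stood at 12.1, 11.9, 3.81, 7.39 and 9.07 CPM. At pnd7 2 of 5 were 2-fold or more higher in hyperoxia, Ccl11 and Ccl12, and 0 lower, against 0.926% and 2.36% of all genes. At pnd60 Ccl8 was lower and 0 of 6 were higher, against 0.829% and 1.28% of all genes. In the sorted library 1 of 5 was higher, Ccl24, and 3 were lower, Ccl11, Ccl12 and Ccl27a, against 8.12% and 43.4% of all genes. Within alveolar macrophage-like cells Ccl24 was higher and 0 of 2 were lower, against 5.64% and 20.6%. With age 1 of 6, Ccl8, was higher in air and in hyperoxia, against 17.2% and 21.7% of all genes. In air 2 of 6 were lower, Ccl24 and Ccl25, against 11.5% of all genes. In hyperoxia 3 of 6 were lower, Ccl11, Ccl12 and Ccl24, against 11.2%.

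Genes induced through NF-kB, the factor that drives many chemokine genes, and genes induced by cell isolation were counted on fixed lists of 12 each. The NF-kB genes with most counts were Zfp36, Nfkbia and Nfkbiz. Of the 11 NF-kB genes measured, 0 passed 2-fold between hyperoxia and air at either age, where 0.829% to 2.36% of all genes passed in each direction. In the sorted library 3 were higher, namely Rel, Il1b and Ier3, and 0 lower, against 8.12% and 43.4% of all genes. At pnd60 8 and 7 were higher and 0 lower than at pnd7 in air and hyperoxia. Over all genes 17.2% and 21.7% were higher and 11.5% and 11.2% lower at pnd60. Cells of the leukocyte classes were 17.6% and 21.0% of the cells at pnd7 and 58.5% and 58.4% at pnd60. Those 7 were Nfkbiz, Nfkb1, Nfkb2, Rel, Tnfaip3, Il1b and Zfp36, to which air added Nfkbia. Within sorted against unsorted alveolar macrophage-like cells 3 were higher, Nfkbia, Il1b and Ier3, against 5.64% of all genes. The isolation genes with most counts were Junb, Jun and Fos. Of 10 measured, 0 passed 2-fold between hyperoxia and air. In the sorted library Atf3 was higher and Fos, Fosb, Jun, Egr1 and Ier2 were lower, against 8.12% and 43.4% of all genes. Within alveolar macrophage-like cells Atf3 was higher and Fos, Fosb and Ier2 lower, against 5.64% and 20.6% of all genes. The shares of lower genes on this list were thus near those of all genes. With age 1 of 10, Dusp1, was higher in air and 2 of 10, Junb and Dusp1, in hyperoxia, against 17.2% and 21.7% of all genes. In both, 0 of 10 were lower, against 11.5% and 11.2% of all genes. Tnf, Hspa1a and Hspa1b are listed at 0 or 1 count in all, and further features that carry these names with a suffix were not added.

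The genes other than the 9 whose pattern was most like that of each chemokine were sought over 62 sums, each a class in a library with at least 20 cells, by Pearson correlation of log2(CPM + 10). The sums share libraries and depth, so the correlations are a description. Ccl6 was most like Clec7a, the β-glucan receptor, at 0.958, then Mcemp1 and Lilrb4a. Ccl7 was most like Fcrls at 0.931, then Ms4a7 and the complement gene C1qa, and Ccl2 most like C3ar1 at 0.855, then F13a1 and Ms4a7. Ccl5 was most like the granzyme gene Gzma at 0.890, then Txk and Ctsw. Ccl9 was most like Clec4a3 at 0.885, then Adgre1, the macrophage gene F4/80, and Ms4a6d. Ccl3 was most like Fcer1g, a chain of Fc receptors, at 0.788, then Tyrobp and Fcgr3, and Ccl4 most like Rgs1 at 0.634, then Tyrobp and Gpr65. Ccl17 and Ccl22 shared Sept3, Cldn1 and Hepacam2, led by Sept3 at 0.864 for Ccl17 and Hepacam2 at 0.871 for Ccl22. Among the 9 chemokines themselves the closest pairs were Ccl2 with Ccl7 at 0.841, Ccl17 with Ccl22 at 0.834 and Ccl3 with Ccl4 at 0.827. Since basophil or mast-like and mature dendritic-like cells never reached 20 cells in a library, they are not among these sums.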

How the data were processed

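The data are 5 single-cell libraries made with the 10x Genomics Chromium system. The authors deposited raw counts of UMIs per gene and barcode, without normalization, as written by Cell Ranger (3.1.0 per the file headers), on the mm10 build per the labels. Neither the gene annotation nor the use of strand in counting is stated by any source read. Each sample was grouped by its source label, and the 9 genes and all lists were chosen with earlier results of these data known.

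Cells with more than 700 and fewer than 8000 genes and under 5% mitochondrial counts were kept. The mitochondrial share came from 2 ribosomal RNAs, as in the features. Doublets were called with Scrublet in scanpy 1.11.5 and kept, except in an alternative. It called 0 cells in pnd7 air and 4 in pnd7 hyperoxia, so that alternative left those libraries nearly unchanged. Cells were clustered on 3000 variable genes, 50 components and 20 neighbours with Leiden (leidenalg 0.10.2) at resolution 2, leaving out 69 chemokine and receptor features. This gave 54 clusters, of which 5 stayed unnamed. The clusters filled 24 of 27 classes with fixed markers, and the thresholds for naming were set after seeing the clusters. The study annotated its cells in Seurat 3.2.1, and its cell types may differ from these rebuilt names.

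Counts were summed over cells and divided by the total of all their counts to give CPM. CPM has exact Poisson intervals, shares have Clopper-Pearson intervals, and log2 ratios have an exact interval conditional on the summed counts of the compared libraries. Intervals are at 95%. A library at 0 was set to 3 counts and the ratio called a bound. A ratio of 2-fold or more was counted from 20 counts upward in both libraries together. Intervals were tried on simulated library sums with independent Poisson counts, the kind of error they assume. That trial cannot judge them for counts clumped in few cells. Between 7880365 and 16648251 counts per library limit the precision, and 3 counts correspond to 0.180 to 0.381 CPM. The genes named are the 9 chemokines, for each fixed list those past 2-fold and the 3 with most counts, and the 3 genes most like each chemokine among those with at least 500 counts. Alternatives were a wider filter, all barcodes, removal of doublets, totals without hemoglobin, median-of-ratios and edgeR 4.0.16 TMM factors, the average of single-cell CPM, thinning to 1000 counts, no minimum of counts, other resolutions and classes taken from the markers of each cell. Software was R 4.3.3, Python 3.11.15, pandas 2.3.3, scipy 1.17.1 and numpy 2.4.6. Promoters are from RefSeq on GRCm38.p6, and those of Ccl2, Ccl4, Ccl5 and Ccl7 were not used here. One gene of the receptor list is not reported here, so that list is given without counts.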

Additional observations from a re-analysis of the deposited data

Results flagged for a closer look

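For 3 chemokines the hyperoxia to air log2 ratio had opposite signs at the ages with intervals that excluded 0 at both, and the difference between the ages was not tested, since each ratio rests on 1 library per condition. Ccl17 stood at 1.17 at pnd7 and -0.77 at pnd60. Without the cell with most counts in each library these were 0.17 and -0.71. Ccl5 stood at 0.86 at pnd7 and -0.07 at pnd60, and the latter was 0.07 as the mean over cells of each cell's CPM. Of its 1649 pnd7 hyperoxia counts, 958 lay in 4 mature dendritic-like cells, a class with 0 cells in pnd7 air. Ccl6 stood at 0.14 at pnd7 and -0.15 at pnd60. All 3 of the pnd60 values and the pnd7 values of Ccl5 and Ccl6 are smaller than 2-fold.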

How the results depend on the processing

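No paired analysis was possible because the groups share no replicate numbers other than the 1 given to every library. A count of chemokines past 2-fold was taken as kept where it stayed within 1.5 times its value. The share in leukocyte classes was taken as kept where it stayed inside its 95% interval. By these rules 59 of 68 settings kept the result. In hyperoxia against air at pnd7 the count went from 3 to 1 with cells thinned to 1000 counts and to 1 without the cell with most counts of each gene, an alternative chosen after seeing the data. Ccl4 remained in both. At pnd60 it went from 0 to 1, Ccl22, with thinned cells. In alveolar macrophage-like cells, sorted against unsorted, it went from 3 to 5 with median-of-ratios size factors and to 5 with TMM factors, where Ccl7 and Ccl22 were added, and to 1, Ccl3, with thinned cells, where Ccl4 gave a lower bound of 0.54. Those factors set the median of all genes, -0.36 in this class, near 0. The share of counts in leukocyte classes went from 94.7% to 95.2% with each cell classed by its own markers, 95.0% without doublets and 94.8% with the wider filter and own markers. Of 535 single ratios 154 moved beyond their interval and 21 changed sign, none of them past 2-fold in the reported fit. Depth limits Ccl22 at pnd7, with 29 and 11 counts. The cause of the changes was not tested.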
